A study of Mus musculus with 4 samples.

Results

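The regions described here are stretches of H3K4me3 at least 4000 bp wide that also carry H3K27me3 in mouse rosette stem cells, pluripotent cells held between the naive and the primed state. They were taken from the H3K4me3 list of the embryonic stem cell line CGR8 (strain 129/Ola): regions on chromosomes 1 to 19, outside chromosome 11 from 3.0 to 3.1 Mb, that share at least 1 bp with a CGR8 H3K27me3 region. Of the 25241 H3K4me3 regions of CGR8, 24578 lay in the part of the genome used, 2798 of these were at least 4000 bp wide, and 371 carried H3K27me3. H3K27me3 covered at least 50% of 274 of them, called bivalent below, and under 50% of the other 97.

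ChIP-seq of both marks was done in 2 lines, CGR8 and R1 (strain 129), with 1 library for each line and mark. All cells had been kept for 8 days in N2B27 with LIF, the WNT secretion inhibitor IWP2 at 2 µM and the MEK inhibitor PD325901 at 1 µM. Untreated or other pluripotent cells were not analysed here, so no statement on a change with state or treatment can be made. The 4 lists hold 76945 regions. Total reads per library are not stated in the labels or lists used, and the H3K27me3 lists differ in extent, with 134 Mb covered in CGR8 and 99.4 Mb in R1, while the H3K4me3 lists cover 59.0 and 55.6 Mb.

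H3K4me3 is written at promoters by COMPASS-type methyltransferases, mostly over CpG islands, and its widest stretches have been described at genes that a cell type transcribes. H3K27me3 is written by Polycomb repressive complex 2 and marks silent developmental genes. Promoters with both marks, named bivalent, are typical of pluripotent cells, where many regulators of later lineages are silent but can be switched on. A wide H3K4me3 region under H3K27me3 therefore joins features that are usually described for different sets of genes. The lists come from populations of cells, so a region with both marks may hold them in different cells.

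Membership and class were set by the CGR8 values, so these are given as a description with no test. The R1 libraries were not used to choose the regions and serve as the check. With 1 library for each line and mark, no difference between lines can be tested, and regions of a library are not replicates. Intervals in brackets are exact Clopper-Pearson 95% intervals and cover counting error only. Coordinates refer to mm9 and count from 1. Genes were not assigned, because the gene table used here is on another build.

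The share of H3K4me3 regions with H3K27me3 was lower among wide ones than in the whole list, in both lines. In CGR8, 13.3% of the 2798 wide regions overlapped H3K27me3, against 28.5% of all 24578 regions, and 9.79% against 25.5% were covered at least 50%. The R1 H3K27me3 list gave the same order over the same CGR8 regions, with 15% against 28.3% overlapping it and 10.9% against 25.5% covered at least 50%. Within the wide regions, the share that carried H3K27me3 in CGR8 was 16.6% (13.8% to 19.6%) at 4000 to 4200 bp, 12.01% (9.66% to 14.7%) at 5000 to 5800 bp and 8.66% (6.36% to 11.4%) at 6000 to 7800 bp. At 8000 bp and above it was 10.3% (6.74% to 15%), 24 of 232 regions. The share covered at least 50% was lower in each wider class, from 12.9% (10.4% to 15.6%) in the narrowest to 4.74% (2.39% to 8.32%) in the widest. With R1 H3K27me3 these shares were 14.0% (11.5% to 16.9%) and 5.603% (3.02% to 9.39%), as the plot of shares by width shows. A wider region needs more bases under H3K27me3 to reach 50% cover, with the list of either line. Part of the fall in that share may therefore be set by the measure. The trend with width was not tested.

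**Figure D1:**
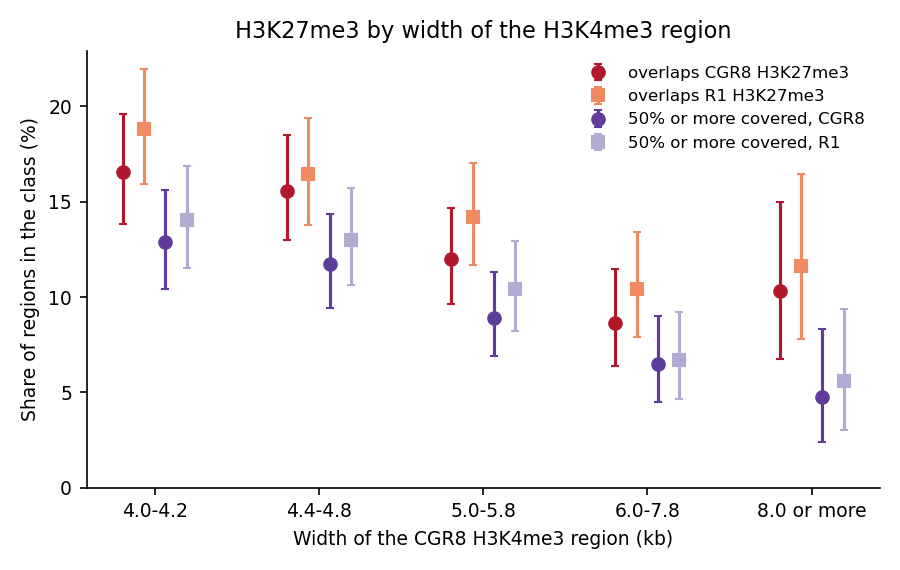
Share of wide CGR8 H3K4me3 regions (%) that overlap H3K27me3 or are covered by it at least 50%, by width of the H3K4me3 region (kb), with the H3K27me3 list of CGR8 (circles) or R1 (squares). Bars are exact 95% intervals. The share covered at least 50% in CGR8 falls from 12.9% to 4.74% over the 5 width classes. A wider region needs more covered bases to reach 50%.

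The 371 regions were spread over all 19 chromosomes used, and few lay close together. Their number ranged from 4 on chromosome 16 to 36 on chromosome 2. As a share of the wide H3K4me3 regions of a chromosome it was lowest on chromosome 16, at 5.48% (1.51% to 13.4%), and highest on chromosome 18, at 21.4% (12.5% to 32.9%), followed by chromosome 8, at 19.4% (13.6% to 26.4%). With the same rule applied in R1, the shares were 9.84% on chromosome 16, 22.7% on chromosome 18 and 23.5% on chromosome 8. Neighbouring members on a chromosome were a median of 3.33 Mb apart, and 6 of 352 neighbouring pairs were under 20 kb apart. The members touched 405 H3K27me3 regions, of which 3 held 2 members each and 101 overlapped a further H3K4me3 region. A single H3K27me3 region on chromosome 2, from 10257401 to 10312000 (54.6 kb), held a pair of bivalent members, of which R1 H3K27me3 covered 55% and 100%.

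In CGR8, 148 of the 371 regions were covered completely and 157 to at least 90%. A further 45 fell between 40% and 60%, around the limit that separates the classes. Cover of at least 50% was less frequent among the 371 (73.85%) than among the 6637 narrower H3K4me3 regions with H3K27me3 (90.4%). A wider region needs more covered bases to reach 50%, and the difference was not tested. The share covered completely among narrower regions is not given here. Among the 274 bivalent regions, 88 were covered from a single edge, 25 from both edges with a gap between, and 13 had H3K27me3 inside with neither edge reached. The 97 regions under 50% were not all touched at an edge only. A single edge was reached in 83 of them and both edges in 4, and in 10 H3K27me3 lay inside the H3K4me3 region. The length covered in the 97 ran from 200 bp to 6600 bp, with a median of 1400 bp, and was under 1000 bp in 26.

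The H3K27me3 regions themselves were of different size in the classes, which the choice by cover may partly set. Over the bivalent members they had a median width of 10000 bp and a median score of 44.9 per kb, and over the members covered under 50% a median of 4800 bp and 33.5 per kb. For all 14575 H3K27me3 regions of CGR8 the medians were 7600 bp and 19.6 per kb. Of the bivalent members, 55 lay in H3K27me3 regions of at least 20 kb and 1 in a region of at least 100 kb. Members wholly covered had H3K27me3 beyond both bounds in most cases, with a median of 4000 bp on the shorter side and 8100 bp on the longer. Only 6 of the 148 had a flank of 0 bp, and 54 had more than 5000 bp on both sides.

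The R1 libraries carried H3K27me3 over the same bivalent regions. Of the 274, R1 H3K27me3 covered at least 50% of 254, which is 92.7% (88.9% to 95.5%), against 10.9% of all wide H3K4me3 regions and 25.5% of all H3K4me3 regions. It overlapped 13 further regions to under 50% and was not called on 7. Of the 97 regions under 50% in CGR8, R1 H3K27me3 overlapped 84, or 86.6% (78.2% to 92.7%), against 15% of all wide regions, and covered at least 50% of 20, or 20.6% (13.1% to 30.0%). Of the 2427 wide regions without CGR8 H3K27me3, R1 H3K27me3 covered at least 50% of 30, or 1.24% (0.836% to 1.76%). These shares differ by more than their counting intervals, and the spread between libraries of a line could not be measured.

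Regions covered completely in CGR8 were mostly covered completely in R1 as well. R1 H3K27me3 covered 125 of the 148 completely covered regions from end to end and at least 50% of 146 of them, 98.6% (95.2% to 99.8%). Complete cover by R1 H3K27me3 was found at 5.47% of all wide regions and 22.1% of all H3K4me3 regions. For regions with 50% to under 60% covered in CGR8 the share with at least 50% in R1 was 68.2% (45.1% to 86.1%, 15 of 22), and for those with 40% to under 50% it was 39.1% (19.7% to 61.5%, 9 of 23). Near the limit, therefore, the class in CGR8 told less about the class in R1, with wide intervals on both shares. Cover in R1 lay within 10 percentage points of that in CGR8 for 196 of the 274 bivalent regions and for 63 of the 97 others. Where it differed by more, R1 was lower in 46 and higher in 32 bivalent regions, and lower in 11 and higher in 23 of the others. Since each class was chosen on its CGR8 cover, these shifts towards the other class are a description.

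**Figure D2:**
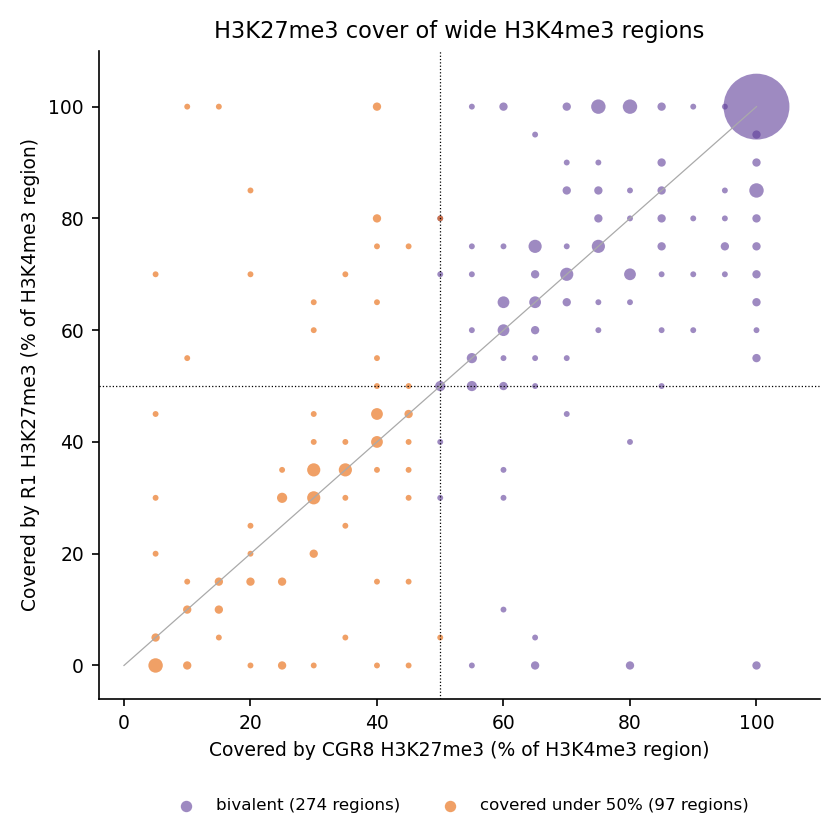
Percentage of each wide CGR8 H3K4me3 region covered by H3K27me3 in CGR8 (x axis) and in R1 (y axis), with values rounded to 5 percentage points and circle area in proportion to the number of regions. Dotted lines mark 50% and the grey line equal cover; the large circle at the upper right holds the regions covered completely in both lines, 125 in number before rounding.

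The side of the contact was in most cases the same. Of the 83 members under 50% that CGR8 H3K27me3 reached from a single edge, 61 were reached from that same edge alone in R1, none from the opposite edge alone, 9 from both edges or over the whole length and 1 inside only, while 12 had no R1 H3K27me3. In the 61, the length covered differed between the lines by a median of 200 bp, the width of 1 window of the lists, and by at most 400 bp in 45. Of the 88 bivalent members covered from a single edge, 55 were covered from the same edge alone in R1 and 1 from the opposite edge alone, and the covered length again differed by a median of 200 bp.

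Around the completely covered regions, H3K27me3 was called on both sides. At 5 kb from the H3K4me3 centre, 77.0% and 73.6% of the 148 regions had H3K27me3 called in CGR8 on the left and right, and 70.9% and 68.2% in R1. At 12 kb the values were 39.9% and 29.7% in CGR8 and 29.7% and 27.03% in R1. Members under 50% with a single edge reached were turned so that the CGR8 contact lay on the right. At 5 kb on that side H3K27me3 was called at 69.9% of the 83 regions in CGR8 and 59.0% in R1, and on the opposite side at 3.61% and 7.23%. At the centre itself it was called at 2.41% in CGR8, which the choice of these regions sets, and at 19.3% in R1. The choice and the turning also largely set the difference between the sides in CGR8, so only the R1 values serve as a check. At 8 kb from the centre, H3K4me3 was called at 18.1% and 16.9% of these members in CGR8 and at 15.7% and 14.5% in R1. Beside completely covered regions it was called at 6.76% and 7.43% in CGR8 and 5.41% and 6.76% in R1. Members of 18.8 kb and 16.6 kb reach 8 kb from their centre themselves, so not all of the calls at members under 50% are neighbouring regions. The difference between the classes was not tested.

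**Figure D3:**
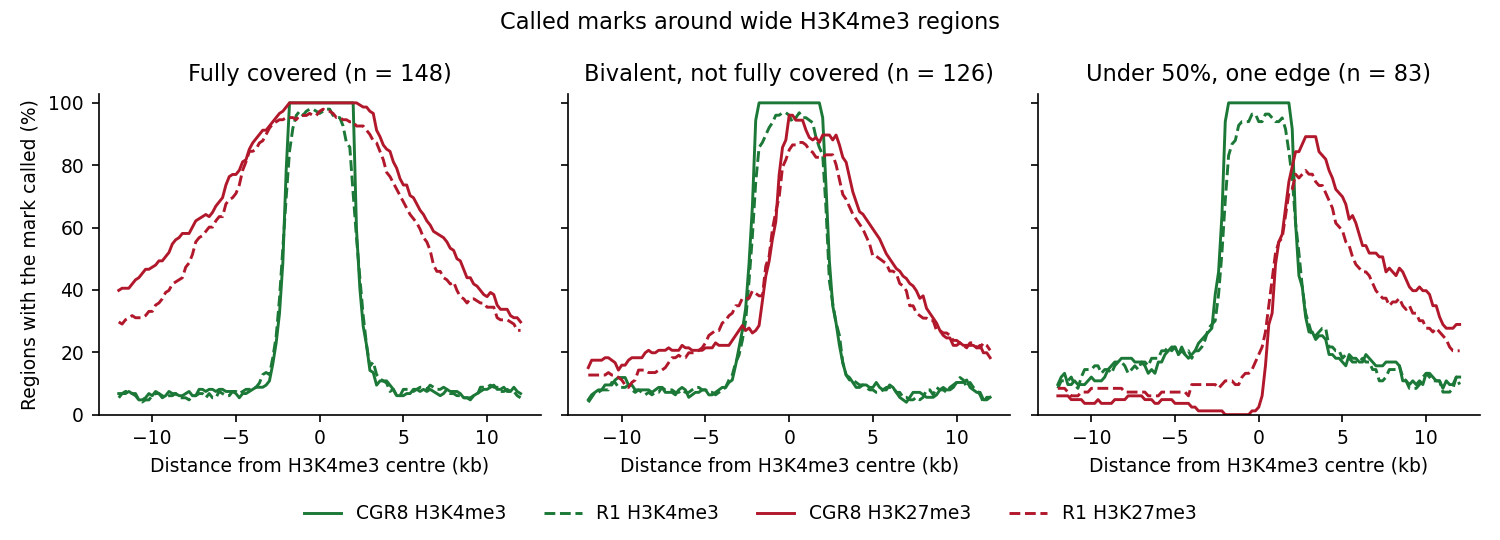
Percentage of regions with H3K4me3 (green) or H3K27me3 (red) called in each 200 bp window, by distance from the centre of the CGR8 H3K4me3 region (kb), in CGR8 (solid) and R1 (dashed), for 148 completely covered regions, 126 other bivalent regions and 83 regions covered under 50% from a single edge. Regions whose left edge alone is reached are mirrored; the R1 curves follow the CGR8 side, with 59.0% against 7.23% at 5 kb in the right panel.

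The share of members with wide H3K4me3 in R1 was near that of wide regions in general. An R1 H3K4me3 region overlapped all 274 bivalent members and 96 of the other 97, against 99.4% of all wide regions and 89.8% of all H3K4me3 regions. It was at least 4000 bp wide at 190 bivalent members, 69.3% (63.5% to 74.8%), and at 75 of the 97 others, 77.3% (67.7% to 85.2%), against 71.6% of all wide regions and 10.5% of all H3K4me3 regions. Of the 84 bivalent members with a narrower R1 region, 57 had one of 3000 to 3800 bp and 6 one under 2000 bp. The R1 width was a median of 0.958 times the CGR8 width at bivalent members, 0.966 times at the others and 0.923 times at wide regions without H3K27me3. Both bounds lay within 400 bp of the CGR8 bounds at 162 bivalent members (59.1%), at 48 of 96 others (50%) and at 44.4% of the wide regions without H3K27me3. At 29 bivalent members and 9 of the others the CGR8 region met 2 or more R1 regions. By the R1 bounds, 177 bivalent members were also at least 4000 bp wide and covered at least 50% in R1. A further 75 were covered to that extent but narrower, 13 were wide but covered less, and 9 were neither. By the same R1 bounds, 7.61% of all wide regions and 1.225% of all H3K4me3 regions were both wide and covered at least 50%.

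The same rule applied to the R1 lists found 364 wide H3K4me3 regions with H3K27me3 among 2462 wide ones, of which 269 were bivalent and 95 covered under 50%. The share of wide regions that carried H3K27me3 was 14.0% ± 1.08 (SD, n = 2 lines), and 73.9% ± 0.0330 (SD, n = 2) of those were bivalent. The bivalent sets shared 177 regions, 64.6% of the CGR8 set and 65.8% of the R1 set. By the R1 bounds, 7.61% of all wide CGR8 regions and 1.225% of all CGR8 H3K4me3 regions were wide and covered at least 50% in R1. CGR8 H3K27me3 covered at least 50% of 230 of the 269 R1 regions (85.5%) and was not called on 20. The same shares over all R1 H3K4me3 regions are not given here, so these counts have no background beside them. The share covered at least 50% in the other line was thus 92.7% from CGR8 and 85.5% from R1. Both directions compare the same lists, so they are not separate measurements and no SD is given.

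The H3K4me3 score for a given length had a lower median at bivalent members than at the other wide regions. The score is the authors' value for each region, with no stated formula, and the score per kb had a median of 305 at bivalent members (quartiles 178 and 437), 458 at members covered under 50% (323 and 638) and 469 at wide regions without H3K27me3 (224 and 685). In R1, which the rule did not use, the regions over the same places had medians of 326 (214 and 478), 455 (316 and 623) and 497 (236 and 689), so the order was the same for bivalent members, while the middle ranges of the classes overlapped. The bivalent members were also narrower, with a median of 4600 bp against 4800 bp and 5000 bp, and the part of width in the score per kb, like the difference itself, was not tested. Among regions narrower than 4000 bp the order in CGR8 was the other way round, with 190 per kb for those with H3K27me3 and 123 per kb for those without.

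**Figure D4:**
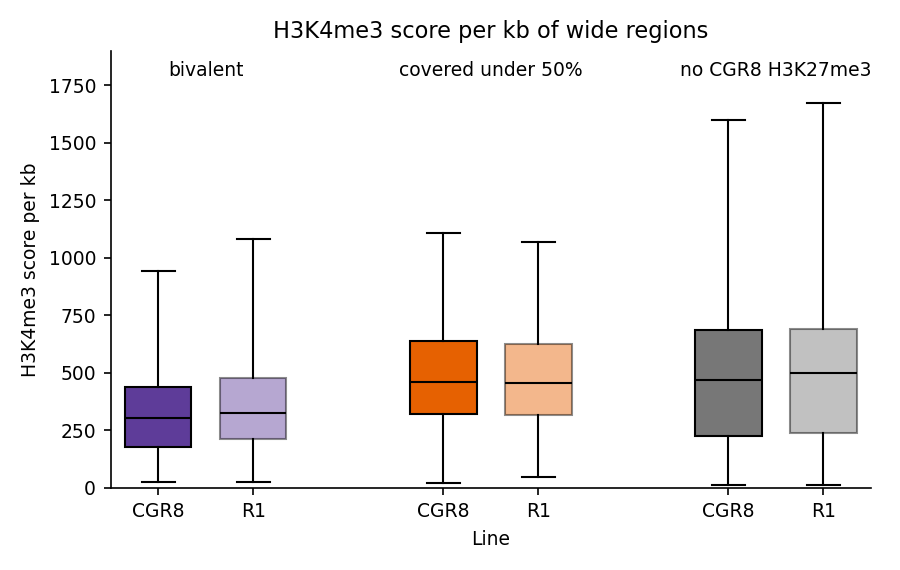
H3K4me3 score per kb in CGR8 (dark) and of the widest overlapping region in R1 (light) for bivalent members (274 regions), members covered under 50% (97 in CGR8, 96 in R1) and wide regions without CGR8 H3K27me3 (2427 and 2411). Boxes show quartiles and median and whiskers the lowest and highest value; the medians of the bivalent class are 305 and 326.

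The widest bivalent member lay on chromosome 9 from 20831801 to 20842400 (10.6 kb) and was reached by H3K27me3 from the right, over 6600 bp in CGR8 and 6000 bp in R1. There R1 had 3 separate H3K4me3 regions, the widest of 4.8 kb. On chromosome 18 from 83078201 to 83088400 (10.2 kb) the cover was 84.3% in each line, from the left, and the R1 H3K4me3 region was 11 kb wide. A member on chromosome 10 from 126944801 to 126954400 (9.6 kb) was covered 75% in CGR8 and 87.5% in R1, and its H3K4me3 was called as 2 regions in R1. These regions kept their H3K27me3 while the H3K4me3 call was split at 2 of the 3.

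Of 4 further ones among the 10 widest, 2 were covered from end to end in both lines. On chromosome 11 from 23974201 to 23982800 (8.6 kb) cover was 100% in CGR8 and in R1, and on chromosome 4 from 99319601 to 99327800 (8.2 kb) it was likewise 100% in each, inside H3K27me3 regions of 17.6 kb in CGR8 and 15.4 kb in R1. A member of chromosome 2 from 172371001 to 172380000 (9 kb) was covered 100% in CGR8 and 93.3% in R1, and another from 115885001 to 115894000 (9 kb) 75.6% and 86.7%. These 4 had R1 H3K4me3 regions of 8.4 kb to 8.8 kb, close to their CGR8 widths.

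The remaining 3 of the 10 widest bivalent members were nearer the limit. On chromosome 7 from 108072801 to 108082000 (9.2 kb), cover was exactly 50% in CGR8 and 28.3% in R1. On chromosome 8 from 15026601 to 15035200 (8.6 kb) it was 58.1% in CGR8, by an H3K27me3 region of 30.2 kb, and 34.9% in R1, by a region of 3 kb. On chromosome 13 from 29038201 to 29046400 (8.2 kb) it was 61.0% and 51.2%. By the R1 cover the first 2 would not be bivalent.

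**Figure D5:**
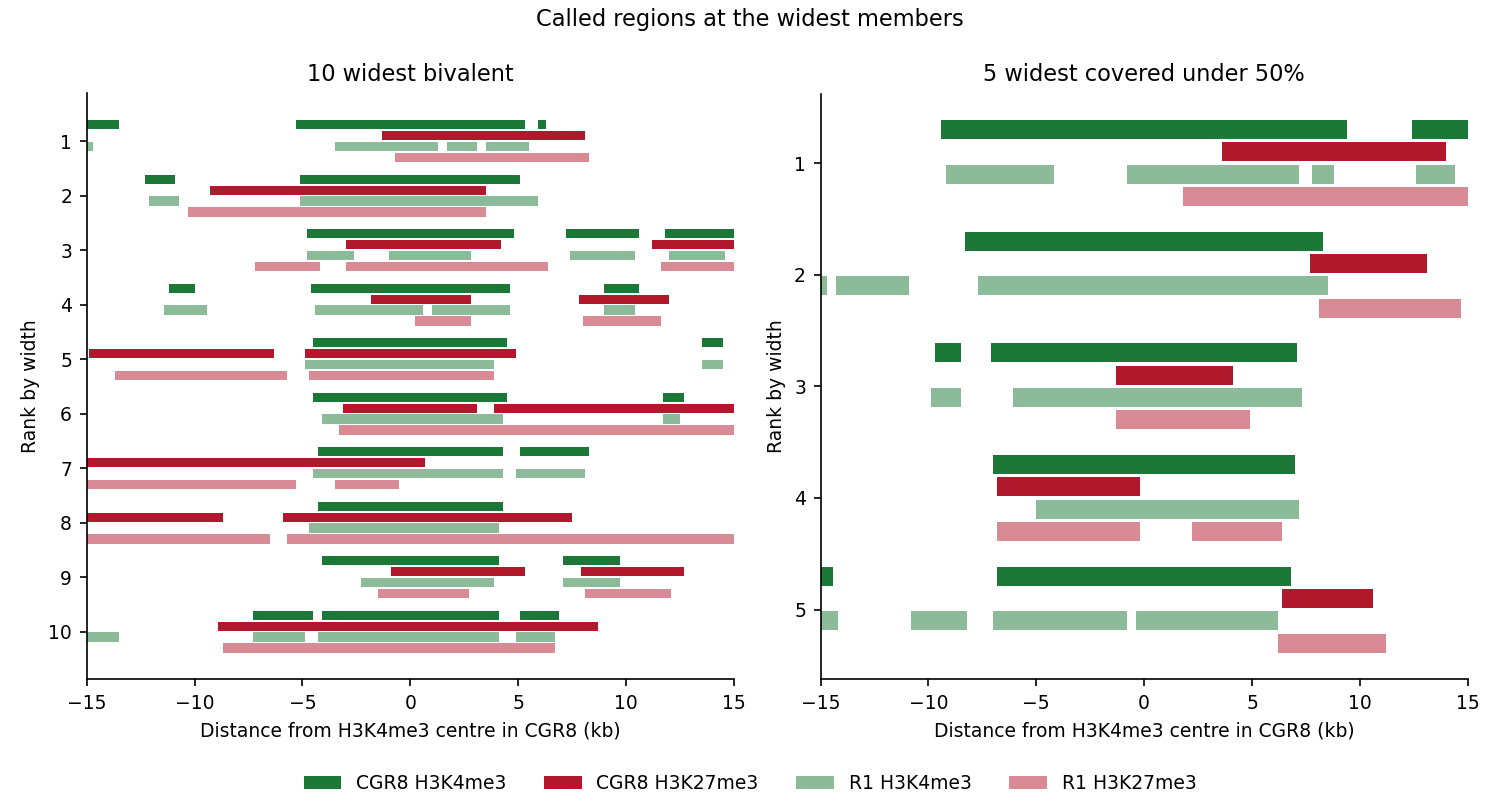
Called H3K4me3 (green) and H3K27me3 (red) regions in CGR8 (dark) and R1 (light) at the 10 widest bivalent members and the 5 widest members covered under 50%, by distance from the centre of the CGR8 H3K4me3 region (kb, cut at 15 kb on each side). Ranks follow width in CGR8; ranks 5, 8 and 10 on the left are covered completely in CGR8, and ranks 2 and 5 on the right by 600 bp and 400 bp at a single edge.

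The widest members covered under 50% exceeded the widest bivalent one. On chromosome 14 from 49270801 to 49289600 (18.8 kb), H3K27me3 entered from the right over 5800 bp in CGR8 and 7600 bp in R1, and R1 had 3 H3K4me3 regions there. On chromosome 7 from 140300601 to 140317200 (16.6 kb) the contact was 600 bp in CGR8 and 200 bp in R1, and on chromosome 11 from 69221601 to 69235200 (13.6 kb) 400 bp and 600 bp. On the CGR8 bounds, both were touched only at the right edge in either line. In the chromosome 11 region, however, R1 H3K4me3 was split into 2 regions and shared no base with R1 H3K27me3, which began where the H3K4me3 ended. R1 H3K4me3 was also split into 2 regions on chromosome 2 from 165703201 to 165714200 (11 kb), where H3K27me3 reached 400 bp of the CGR8 region in each line and no base carried both marks in both lines. On chromosome 11 from 120088801 to 120103000 (14.2 kb) an H3K27me3 region of 5.4 kb in CGR8 and 6.2 kb in R1 lay inside the H3K4me3 region, which was 13.4 kb wide in R1. On chromosome 5 from 143572201 to 143586200 (14 kb) the cover was 47.1% in CGR8, over 6600 bp, and 77.1% in R1, over 10800 bp.

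Some members changed class between the lines. Besides the chromosome 5 region, the widest that passed from under 50% in CGR8 to at least 50% in R1 lay on chromosome 14 from 122870601 to 122880000 (19.1% and 87.2%), on chromosome 14 from 65204401 to 65212600 (39.0% and 73.2%), on chromosome 2 from 30324801 to 30332000 (27.8% and 63.9%) and on chromosome 11 from 68933601 to 68940200 (45.5% and 51.5%). In the first of these the H3K27me3 region was 4.6 kb wide in CGR8 and 20 kb in R1. The only member without any R1 H3K4me3 region lay on chromosome 4 from 45768201 to 45773000 and was named after its values were seen. Its H3K4me3 score of 108.8 was the lowest of the 97, and R1 H3K27me3 was not called there either.

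R1 H3K27me3 was not called at 7 bivalent members. Their CGR8 H3K27me3 regions scored a median of 94.5, from 77.6 to 371.5, and those of the 254 members covered at least 50% in R1 a median of 534.9, from 72.0 to 13690. The ranges overlapped, and the lowest score of the 254 was below that of any of the 7. The highest of the 7, at 371.5, was on chromosome 10 from 59411201 to 59416600 (5.4 kb, 81.5% covered in CGR8). The next by width were on chromosome 4 from 141427201 to 141431800, chromosome 18 from 62336201 to 62340800, chromosome 3 from 51199401 to 51203800 and chromosome 9 from 95537001 to 95541200, with H3K4me3 in R1 at each, 1.2 kb to 4.8 kb wide. With the 274 divided by H3K27me3 score into 3 classes of like size, the share covered at least 50% in R1 was 83.5% (74.3% to 90.5%) in the lowest class, 96.7% (90.7% to 99.3%) in the middle and 97.8% (92.4% to 99.7%) in the highest. A region missing from the R1 list may still hold the mark below the authors' threshold.

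Both marks in both lines covered 0.996 Mb of the bivalent members and 0.112 Mb of the others. An unbroken run of at least 2000 bp with all 4 calls was present in 245 of the 274 bivalent members and one of at least 4000 bp in 99, with a median longest run of 3400 bp. In the 97 others the median was 1200 bp, and 17 and 2 had such runs. The choice by CGR8 cover sets much of this difference between the classes. CGR8 H3K27me3 covered at least 2000 bp of every bivalent member. In the others it covered a median of 1400 bp, with an upper quartile of 2000 bp, so many could not hold a run of 2000 bp. The difference is therefore a description, and shares over all wide regions are not given here.

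One bivalent member stood apart and was named after its value was seen. On chromosome 17 from 39979801 to 39986000 (6.2 kb) the CGR8 H3K27me3 region scored 2098 per kb, against at most 162 at any other bivalent member, and 619 per kb in R1 (scores of different libraries are not known to share a scale), while its H3K4me3 score per kb was 562 in CGR8. H3K27me3 covered it 100% in CGR8 and 96.8% in R1. Whether reads map uniquely there was not analysed here, so these scores may not measure H3K27me3 alone. Without it, 253 of 273 bivalent members (92.7%) were covered at least 50% in R1, and the median H3K27me3 score per kb was 44.9.

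The limit on cover was met exactly by 4 members, among them the region on chromosome 7 above, a region on chromosome 17 from 84584201 to 84589000 (41.7% in R1) and one on chromosome 6 from 8458201 to 8462200 (50% in R1). Just below it lay a region on chromosome 14 from 62299201 to 62303800 at 47.8% (78.3% in R1) and one on chromosome 7 from 119821601 to 119825800 at 47.6% (4.76% in R1). The width limit was met exactly by more, since 57 of the 371 members were 4000 bp wide, 45 of them bivalent, and 68 regions of 3800 bp with H3K27me3, 57 of them covered at least 50%, fell just outside.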

How the data were processed

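The authors deposited 1 list of ChIP-seq regions for each line and mark, in which every region has a score of unstated formula. Per the submitters' processing notes, reads were handled with tools that include Bowtie2 2.0.2, bedtools 2.20.1 and SICER 1.1, on mm9; the settings, control library and threshold were not stated there. Bounds lie on a 200 bp grid. Neighbouring regions were at least 800 bp apart for H3K27me3 and 400 bp for H3K4me3, so smaller gaps count as covered. The lowest H3K27me3 score was 70.6 in CGR8 and 59.4 in R1, and the lowest H3K4me3 score 38.5 and 37.3.

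Cover is the percentage of an H3K4me3 region's bases inside H3K27me3 regions; the R1 width is that of the widest overlapping region. Cover and position were checked on simulated lists. Python 3.11.15, numpy 2.4.6, pandas 2.3.3, scipy 1.17.1 and matplotlib 3.10.9 were used. Regions named are the 10 widest bivalent ones, the 5 widest others, the 3 nearest to 50% on each side, the 5 widest without R1 H3K27me3, the 5 widest that changed class upwards, and the 3 widest split in R1. The members and lists were chosen with earlier results of these data known. Genes and sequences need mm9 and were not analysed here. Alternatives changed the limits, the H3K27me3 list, the chromosome 1 block from 104 to 124 Mb and the line.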

Additional observations from a re-analysis of the deposited data

Results flagged for a closer look

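Outside the chromosomes used, the X chromosome also held wide H3K4me3 regions with H3K27me3. There were 4 of 59 wide regions in CGR8, or 6.78% (1.88% to 16.5%), and 5 of 54 in R1, or 9.26% (3.08% to 20.3%), against 13.3% and 14.8% on chromosomes 1 to 19. Those values lie inside the X chromosome's intervals, and the difference was not tested. At least 50% was covered in 2 of those of CGR8 and in all 5 of R1. On the mitochondrial genome 2 of 2 wide H3K4me3 calls overlapped an H3K27me3 call in each line, and in the part of chromosome 11 left out 3 of 3 did. Whether these calls measure histone marks was not analysed here, and they are not read as regions with both marks.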

How the results depend on the processing

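Of 92 values recomputed for 9 results, 74 stayed within 1.5 times the count or within the 95% interval of the share, and 18 moved. Some of the 74 could not move, so that number overstates how far the results were checked. The cover limit does not enter the number of members. A limit on R1 H3K27me3 scores does not enter the R1 H3K4me3 widths, and leaving out R1 repeats the main counts. A width limit of 3000 bp gave 957 members, 733 bivalent and 224 under 50%, and one of 5000 bp gave 150, 105 and 45. A cover limit of 25% left 33 regions under it and made 91.1% bivalent, and 75.8% of those under it overlapped R1 H3K27me3. A limit of 75% left 171 under it and made 53.9% bivalent, 86.5% of which passed that limit in R1. With the higher-scoring 50% of each H3K27me3 list, 62 regions were under 50% and 79.5% were bivalent. Because the rule uses CGR8 alone, leaving out R1 kept the main values of 371 members, 274 bivalent, 97 under 50% and 73.85% bivalent. Leaving out CGR8, with the rule applied in R1, gave 364, 269, 95 and 73.9%. With the rule applied in R1 and checked in CGR8, 85.5% of bivalent regions and 16.8% of the others were covered at least 50%. H3K27me3 overlapped 68.4% of the others. These shares have no background over all R1 regions. At least 4000 bp wide in CGR8 were 79.2% of the bivalent regions and 86.3% of the others, against 81.4% of all wide R1 regions. In the main direction, 71.6% of all wide CGR8 regions were that wide in R1. The cause of these shifts was not tested, apart from fewer or more regions passing a changed limit. Leaving out the chromosome 17 region, chosen after the data were seen, moved none of the 9 results. No paired analysis was possible because the results come from no test. Depth limits what a missing call shows.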

Other observations

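By the R1 lists, 20 of 269 bivalent regions had no CGR8 H3K27me3, a count without a background over all R1 H3K4me3 regions. The 3 widest, chosen after their values were seen, were an 11 kb region on chromosome 6 (30119801 to 30130800, 50.9% covered in R1), a 6.8 kb region on chromosome 14 (60242401 to 60249200, 55.9%) and a 6.4 kb region on chromosome 2 (174108801 to 174115200, 62.5%). CGR8 H3K4me3 was 10 kb, 6.6 kb and 5.2 kb wide there. Their R1 H3K27me3 regions were 3.8 kb to 8.6 kb wide and scored from 90.9 to 181.7.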
